A study of Homo sapiens with 10 samples.

Results

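Genes whose RNA moved one way when CPT1A was overexpressed and the other way when it was knocked down were examined in LNCaP-C4-2, a castration-resistant line derived from the LNCaP prostate cancer line. They were chosen by the deposited counts themselves. Counts were divided by the library total and scaled by 1000000 (CPM), then averaged per line. A gene entered with a mean of at least 1 CPM over all samples and log2 ratios of opposite sign, each at least 0.5 in size, between the overexpressing line and its control and between the knockdown line and its control, with 0.1 CPM added to each mean. Of 57353 genes in the table, 13920 reached 1 CPM and 330 met the rule, 93 that follow CPT1A (higher in overexpression, lower in knockdown) and 237 that oppose it. CPT1A itself and 9 other genes that meet the rule (SHMT2, XBP1, CEBPB, CTH, ENO2, SLC1A4, FGF21, FKBP5 and ACSL3) were left out.

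The series holds 10 bulk RNA samples of 4 stable lines made with lentivirus. A non-targeting shRNA line (NT, n = 2) is the control of a CPT1A shRNA line (KD, n = 3), and the selection drug of this arm was puromycin at 1 ug/ml. An empty-vector line (EV, n = 2) is the control of a line carrying CPT1A cDNA (OE, n = 3), and the selection drug of this arm was blasticidin at 5 ug/ml. Each condition is 1 line and the knockdown used 1 shRNA, so the samples are repeats of a line and not separate lines, and a line, its drug and its virus cannot be told apart. In bulk RNA, fewer cells in a given state and less RNA per cell cannot be told apart either.

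CPT1A sits on the outer mitochondrial membrane and joins long-chain fatty acids to carnitine, the step that controls their entry for oxidation. Cells that run short of amino acids or load the endoplasmic reticulum phosphorylate the initiation factor eIF2, and the transcription factor ATF4 is then made and induces amino acid transporters, biosynthetic enzymes and feedback regulators, a programme called the integrated stress response. Proliferating cells, in turn, raise replication genes around the start of S phase under control of the E2F factors. Both programmes have members among the genes described here.

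CPT1A was at 268 and 265 CPM in NT, 84.7, 87.6 and 90.8 in KD, 329 and 323 in EV, and 830, 857 and 818 in OE. All 4 lines were apart, in the order KD, NT, EV, OE, with log2 ratios of 1.36 for OE over EV and -1.60 for KD over NT. Reads from the introduced cDNA and from the cell's own gene are counted together. Library totals ran from 23555205 to 28615770 counts. All 7 prostate markers examined were present (KLK3, the gene of prostate-specific antigen, was at 2377 to 5577 CPM), while 9 of 13 markers of blood, vessel and stromal cells stayed under 1 CPM in every sample and CD3E, PECAM1 and COL1A2 had no count. The others of the 13 were VWF at 6.34 to 8.87 CPM, COL1A1 at 8.5 to 15.8, PDGFRB at 1.07 to 2.84 and COL3A1 at 0.076 to 2.16. Summed over the list, the prostate markers were at 5386 to 5646 CPM in NT, 8000 to 8439 in KD, 7042 to 7267 in EV and 9494 to 9735 in OE. The other 13 summed to 18.32 to 19.37 CPM in NT, 27.22 to 28.42 in KD, 17.25 to 18.7 in EV and 21.39 to 23.73 in OE, and their part in the results was not tested. KD 2 and OE 2 stood apart from their own group: the chi-square per degree of freedom over genes was 7.13 and 7.28 for the pairs with KD 2 against 2.35 for the pair without it, and 4.05 and 4.69 against 2.23 for OE 2.

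The values that chose the genes are given as a description. The genes that follow CPT1A had a median log2 ratio of 0.65 for OE over EV and -0.78 for KD over NT. Those that oppose it had medians of -0.72 and 0.85. Over all genes at 1 CPM or more the medians were -0.10 and 0.04. The smaller of the 2 ratios was under 0.6 in size for 43 followers and 94 opposers, and at least 1 for 9 followers and 27 opposers. The count levels differed: 59 of 93 followers and 90 of 237 opposers had a mean under 5 CPM. Same-direction change past the same limits was more frequent, with 809 genes lower and 336 higher in both arms.

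**Figure D1:**
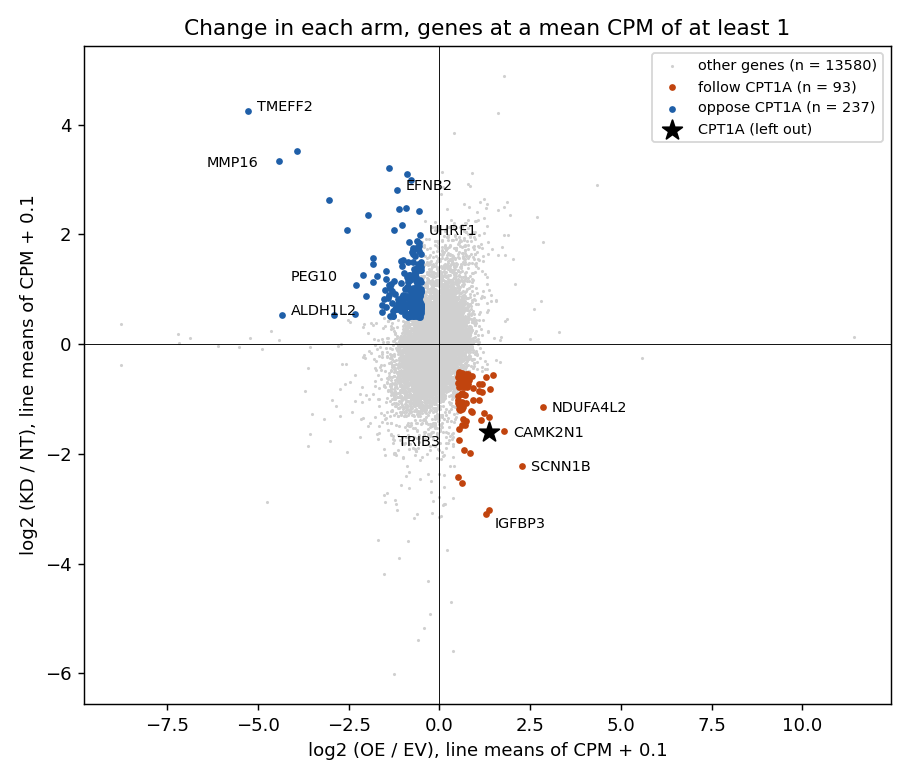
Log2 ratio of OE over EV (x axis) against log2 ratio of KD over NT (y axis) for genes at a mean of at least 1 CPM, each point a gene. The 93 followers (red) fill the lower right corner with CPT1A (star, left out of the set) and the 237 opposers (blue) the upper left, while grey points are the other genes.

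Samples of the compared lines were apart for nearly all of these genes. Every OE sample lay above EV and every KD sample below NT in 88 of 93 followers, a pattern held by 4.91% of genes at 1 CPM or more. Every OE sample lay below EV and every KD sample above NT in 231 of 237 opposers, against 13.5% of those genes. A stricter order, with the OE and KD samples on opposite sides of all 4 control samples, was met by 50 followers (2.37% of genes at 1 CPM or more show it) and 121 opposers (6.04%). Without KD 2 and OE 2 it was met by 53 and 130, but leaving out samples can only ease this order for a gene, so nothing is read from that. In an edgeR quasi-likelihood fit of 17230 genes, called at a Benjamini-Hochberg adjusted p under 0.0001, both arms were called in the follower directions for 37 of 93 followers (0.772% of genes tested) and in the opposer directions for 96 of 237 opposers (0.952%). The followers were called higher in OE in 44 cases (11.6% of genes tested) and lower in KD in 53 (12.8%). The opposers were called lower in OE in 116 cases (10.3%) and higher in KD in 159 (16.4%). These counts use the contrasts that chose the genes, so nothing is read from them. TMM scaling, which raises every OE over EV ratio by 0.10 on the log2 scale, gave 2004 higher and 1774 lower calls in OE against EV, where library size as the only scaling gave 1220 and 2168 (36.0% higher).

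A group of 7 stress-response genes stood among the followers, and all 7 met the stricter order: TRIB3, GDF15, ADM2, SLC6A9, NUPR1, HERPUD1 and PPP1R15A. They are 7 of 48 genes on a list of ATF4 and integrated stress response targets that reached 1 CPM and were not left out, beside 0.668% of all genes at that level. The list as a whole had a median log2 ratio of 0.22 for OE over EV and -0.80 for KD over NT. Of its genes, 30 of 48 were higher in OE and lower in KD at any size, against 11.7% of all genes. In the edgeR fit 25 of 50 tested list genes were called higher in OE and 7 lower, beside 11.6% and 10.3% of all genes tested. For KD, 3 of the 50 were called higher and 40 lower, beside 16.4% and 12.8%.

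TRIB3 (chr20:362835-397559), a pseudokinase induced by ATF4 that restrains it in turn, was at 304 and 285 CPM in NT, 85.7, 92.5 and 84.4 in KD, 262 and 276 in EV, and 399, 422 and 362 in OE. The KD samples were 3.37-fold below NT and the OE samples 1.47-fold above EV, with log2 ratios of -1.75 ± 0.06 and 0.55 ± 0.07, where the error is the standard error from the spread of log2 CPM between samples. GDF15 (chr19:18374731-18389176), a stress-induced secreted cytokine, had the highest level of any follower, at 711 and 692 CPM in NT, 272, 369 and 318 in KD, 946 and 935 in EV, and 1420, 1368 and 1476 in OE. The 4 lines did not overlap and stood in the order of CPT1A. ADM2 (chr22:50481543-50486440), the gene of the peptide hormone intermedin, was at 207 and 201 CPM in NT, 90.1, 94.6 and 94.5 in KD, 191 and 193 in EV, and 295, 310 and 282 in OE. Its NT and EV samples lay close together, between the other lines.

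SLC6A9 (chr1:43991500-44031467), the glycine transporter GLYT1, was at 86.5 and 80.7 CPM in NT, 30.2, 33.7 and 33.2 in KD, 74.7 and 80.1 in EV, and 127, 126 and 114 in OE. The fall-off in KD was the larger arm, with a log2 ratio of -1.37 ± 0.07 against 0.66 ± 0.07 in OE. NUPR1 (chr16:28532708-28539008), a small stress-induced chromatin protein, showed the reverse balance, at 201 and 211 CPM in NT, 112, 141 and 123 in KD, 218 and 214 in EV, and 452, 464 and 462 in OE. Its OE samples were 2.12-fold above EV. HERPUD1, which takes part in degradation of misfolded proteins at the endoplasmic reticulum, was at 185 and 168 CPM in NT, 96.6, 118 and 117 in KD, 163 and 160 in EV, and 267, 270 and 254 in OE. PPP1R15A (GADD34), the phosphatase subunit that removes phosphate from eIF2, sat just inside the rule, with log2 ratios of 0.51 ± 0.06 and -0.60 ± 0.09 at 15.1 ± 0.77 CPM in OE (SD, n = 3) and 6.54 ± 0.37 in KD (SD, n = 3). It left the set when EV 2, OE 1 or OE 3 was left out, while the other 6 stayed under every single-sample omission, and TMM scaling kept all 7. With each arm set against the mean of EV and NT, TRIB3 alone of the 7 left the set. With each arm centred on the median of genes of like G and C content (10 groups), 3 of the 7 stayed, without TRIB3, PPP1R15A, ADM2 and GDF15.

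**Figure D2:**
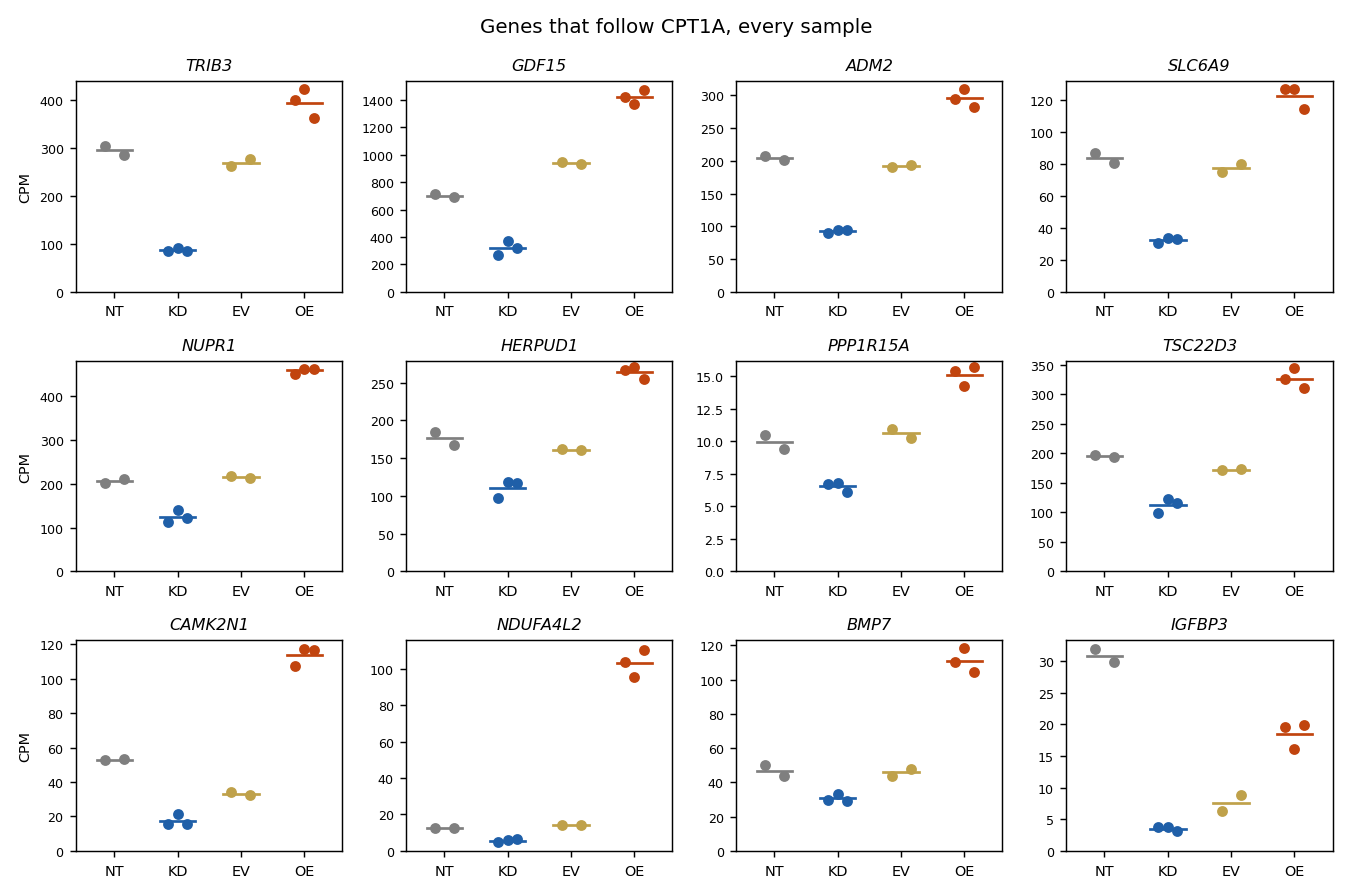
CPM in every sample (points) with the line mean (bar) in NT, KD, EV and OE for 12 genes that follow CPT1A, each on its own linear axis from 0. In 11 of them the OE samples are highest and the KD samples lowest, and IGFBP3 is the exception, with NT above OE.

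The promoters of the followers were searched for the C/EBP-ATF composite site (TGATGNAA, either strand), to which ATF4 binds with a C/EBP partner, and for the cyclic AMP response element (TGACGTCA, which reads the same on both strands), bound by ATF and CREB factors. Promoter windows of 250 bases before to 50 after the start site, from RefSeq on GRCh38.p14, were at hand for 47 of 93 followers and 6 of the 7 stress-response members. Shares are therefore not compared between the sets. The composite site was in 1.64% and the cyclic AMP response element in 3.26% of all 9857 promoters searched, and in 3 and 5 of the 47. HERPUD1 was the 1 stress-response member with the composite letters and PPP1R15A the 1 with the cyclic AMP response element. The 30-base windows are shown to place these letters, which are in capitals, and each reads 5′ to 3′ on the strand of the gene.
HERPUD1, chr16:56931955-56931984, plus strand: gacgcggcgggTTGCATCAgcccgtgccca
CALCA, chr11:14972517-14972546, minus strand: tcccccaccatTTCCATCAatgacctcaat
SLC11A1, chr2:218382208-218382237, plus strand: gaaccgaatgtTGATGTAAgaggcagggca
PPP1R15A, chr19:48872352-48872381, plus strand: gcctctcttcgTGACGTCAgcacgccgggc
MAFF, chr22:38201929-38201958, plus strand: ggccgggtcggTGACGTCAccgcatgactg
DUSP1, chr5:172771302-172771331, minus strand: ggcagggcgggTGACGTCAccgccccgtca
The site of HERPUD1 starts at position -176 from the start site and that of PPP1R15A at -58. A match of letters does not show binding.

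Beyond the stress genes, the followers with the largest change in both arms and a mean of at least 5 CPM had varied roles. CAMK2N1 (chr1:20482391-20486210), an inhibitor of calcium/calmodulin-dependent kinase II, was at 52.5 and 53.2 CPM in NT, 15.8, 21.1 and 15.7 in KD, 34 and 32.2 in EV, and 107, 117 and 117 in OE. Its log2 ratios were 1.78 for OE over EV and -1.59 for KD over NT, although EV itself lay below NT. NDUFA4L2 (chr12:57234903-57240715), a hypoxia-responsive relative of a respiratory chain subunit, had the largest OE ratio of the followers, at 104, 95.3 and 110 CPM against 14.4 and 14.2 in EV, with 12.8 and 12.4 in NT and 4.63, 5.84 and 6.5 in KD. This is a 7.17-fold difference in OE, and the control lines lay within 2 CPM of each other.  None of the 43 genes of the glycolysis and hypoxia list at 1 CPM or more was a member. Of all genes at that level 0.668% follow and 1.70% oppose, so nothing is read from this. The medians of that list were 0.25 for OE over EV and 0.33 for KD over NT.

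TSC22D3 (GILZ), a target of steroid receptors, was at 197 and 193 CPM in NT, 98.1, 123 and 116 in KD, 171 and 173 in EV, and 325, 344 and 310 in OE. It was the only one of 42 androgen-induced genes at 1 CPM or more to follow CPT1A. BMP7, a bone morphogenetic protein, was at 49.9 and 43.6 CPM in NT, 29.8, 33.5 and 29.2 in KD, 43.8 and 48 in EV, and 110, 118 and 104 in OE. IGFBP3, which binds insulin-like growth factors, had the largest KD ratio of all followers, at 31.8 and 29.9 CPM in NT against 3.71, 3.72 and 3.15 in KD. It was at 6.3 and 8.88 in EV and 19.6, 16.1 and 19.8 in OE. So its OE samples were above EV but below NT, and EV was itself far below NT, with a log2 ratio of -2.01.

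TM7SF2, a sterol reductase of cholesterol synthesis, was the single gene of 41 on the cholesterol and fatty acid synthesis list to follow CPT1A, at 119.9 ± 8.92 CPM in KD and 291.2 ± 20.2 in OE (SD, n = 3), with NT at 184.7 ± 5.55 and EV at 190.4 ± 9.07 (SD, n = 2). DUSP1, an early response phosphatase of MAP kinases, ran from 11.9 ± 1.23 CPM in KD to 35.0 ± 1.91 in OE (SD, n = 3), with NT at 18.1 ± 1.27 and EV at 21.9 ± 0.611 (SD, n = 2). Among the remaining followers with large changes in both arms, apart from clone-named genes, were the forkhead factor FOXD1, the phosphatase-like DUSP27, the leucine-rich repeat protein LRRN1, the orphan receptor GPR27, the retinal reductase DHRS3 and IER5L. Their log2 ratios ran from 0.61 (IER5L) to 0.87 (FOXD1) in OE and from -0.65 (DHRS3) to -1.99 (DUSP27) in KD. Exons of GPR27 and EIF4E3 overlap over 11.3% of GPR27. The histone genes HIST1H2BE and HIST1H2BF and the synaptic gene NRXN3 were followers at low level, between 0.679 and 7.19 CPM, and the KD and NT samples of HIST1H2BF overlapped. At 1 CPM or more, they were 2 of 17 listed histone genes and 1 of 17 listed neuronal genes, beside 0.668% of all genes. The histone list had median log2 ratios of 0.26 in OE and -0.63 in KD. Of its genes, 12 of 17 were higher in OE and lower in KD at any size, against 11.7% of all genes. None had the reverse signs.

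A few followers at low level were picked out after their values were seen. SCNN1B and SCNN1G are neighbouring genes on chromosome 16 (span chr16:23182745-23381294) for subunits of the epithelial sodium channel. Among genes placed by the annotation, they were the only 2 at 1 CPM or more in that span, and both followed CPT1A. SCNN1B was at 1.29 and 1.49 CPM in NT, 0.28, 0.28 and 0.105 in KD, 0.551 and 0.702 in EV, and 3.5, 2.89 and 3.93 in OE. SCNN1G was at 8.4, 7.22 and 7.79 in OE against 2.72 and 2.77 in EV, but its KD and NT samples overlapped. CALCA, the calcitonin gene, was at 2.25 and 2.29 CPM in NT, 0.2, 0.2 and 0.175 in KD, 1.5 and 1.36 in EV, and 4.83, 3.69 and 3.01 in OE. MAFF, a small MAF transcription factor, was at 2.7 and 2.09 CPM in NT, 0.799, 0.839 and 1.05 in KD, 1.69 and 2.27 in EV, and 5.33, 4.16 and 6.43 in OE. The KD samples of both were below all the others.

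The genes that oppose CPT1A held a block of replication genes. Of 60 genes on a list of S-phase and DNA replication genes, all at 1 CPM or more, 13 were opposers and none followed, beside 1.70% of all genes at that level that oppose. They were MCM10, ORC6, POLE2, CLSPN, CCNE2, E2F7, UHRF1, HELLS, DSCC1, RAD51AP1, BRCA1, BRCA2 and BRIP1, and 11 of the 13 met the stricter order. The whole list had median log2 ratios of -0.31 for OE over EV and 1.16 for KD over NT, and 49 of 60 were lower in OE and higher in KD at any size, against 25.2% of all genes. In the edgeR fit 57 of 60 were called higher in KD and none lower, beside 16.4% and 12.8% of all genes tested. The OE calls were 3 higher and 9 lower of 60, beside 11.6% and 10.3% of all genes tested. The G2 and mitosis list did not share this: its 61 genes had medians of 0.43 in OE and 1.65 in KD. On this list 32 were called higher in OE, none lower, and 58 higher in KD, beside the same shares of all genes tested. PLK4, the kinase that starts centriole duplication, was its single opposer, at 9.48 and 10.1 CPM in NT, 20.2, 14.6 and 19.2 in KD, 6.81 and 6.56 in EV, and 4.79, 3.14 and 4.89 in OE. The replication-dependent histone list, given above, had follower signs in 12 of 17 genes. Only these 17 of its 36 genes reached 1 CPM. How fully poly(A) libraries hold the RNA of these genes was not tested, so the list is not set against the S-phase list.

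**Figure D3:**
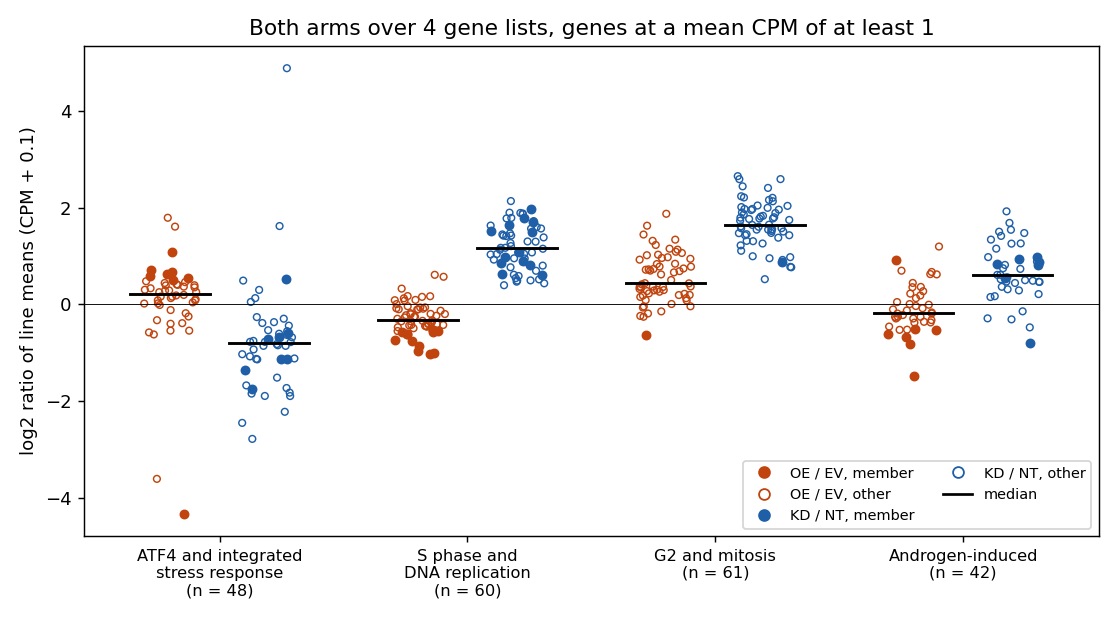
Log2 ratios of OE over EV (red) and KD over NT (blue) for each gene at a mean of at least 1 CPM on 4 lists, filled where the gene is a member and open where it is not, with the list's median as a bar. The S-phase medians lie on opposite sides of 0 (-0.31 and 1.16), the G2 and mitosis medians both above it (0.43 and 1.65).

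CLSPN (chr1:35720218-35769978), the checkpoint adaptor claspin, had the largest smaller arm of the 13, at 10.7 and 11.7 CPM in NT, 34.9, 27.7 and 34.8 in KD, 13.6 and 13.9 in EV, and 6.66, 6.5 and 7.17 in OE. Its log2 ratios were -1.01 ± 0.05 in OE and 1.53 ± 0.13 in KD, and no 2 lines overlapped. ORC6, a subunit of the origin recognition complex, was at 7.81 and 9.32 CPM in NT, 28.6, 26 and 26.6 in KD, 9.25 and 8.54 in EV, and 6.08, 4.8 and 5.07 in OE. POLE2, a subunit of DNA polymerase epsilon, was at 5.26 and 5.79 CPM in NT, 11, 8.39 and 10.8 in KD, 4.76 and 4.87 in EV, and 2.66, 2.46 and 1.84 in OE. In both genes the control lines differed by under 1 CPM in the mean.

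MCM10, which activates the replicative helicase, was at 10.9 and 14.3 CPM in NT, 47.2, 39.97 and 44.9 in KD, 15.1 and 14.8 in EV, and 10.6, 9.64 and 10.3 in OE. UHRF1, which keeps DNA methylation through replication, had the largest KD ratio of the 13, at 11 and 11.3 CPM in NT and 45.1, 42.6 and 45.3 in KD. It was at 15 and 15.8 in EV and 9.85, 9.34 and 12.5 in OE, so OE overlapped NT. CCNE2, cyclin E2, was at 14.6 and 14.3 CPM in NT, 24.7, 19 and 23.6 in KD, 10.2 and 10.5 in EV, and 5.71, 4.33 and 5.66 in OE, and 37.0% of its exon bases are shared with INTS8. E2F7, a repressive E2F, was at 30.3, 25.5 and 28.3 CPM in KD against 7.88 and 9.28 in NT, and at 8.37, 6.75 and 7.94 in OE against 11.2 and 11.7 in EV.

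BRCA1 and BRCA2, which act in homologous recombination, were opposers as well. BRCA1 was at 27 and 30.2 CPM in NT, 59.3, 45.5 and 56.4 in KD, 27.2 and 29.6 in EV, and 20.4, 14.8 and 20.1 in OE. BRCA2 was at 23.4 and 29.8 CPM in NT, 57.2, 36 and 63.4 in KD, 19.6 and 23.6 in EV, and 14.1, 13.6 and 16.8 in OE. The helicase BRIP1, which binds BRCA1, was at 5.83 and 6.23 CPM in NT, 19.3, 14.8 and 17.5 in KD, 8.19 and 6.11 in EV, and 3.69, 3.65 and 4.26 in OE. Among opposers on no list, 9 further repair genes were picked out after their values were seen: XRCC2, RAD54B, FANCB, FANCM, FANCL, POLQ, MMS22L, ATAD5 and DNA2. Their log2 ratios ran from -1.28 to -0.57 in OE and from 0.51 to 1.15 in KD. They come from no fixed list, and how many other repair genes did not move this way was not counted. POLQ, DNA polymerase theta, was at 21.2 and 23 CPM in NT, 52.6, 41 and 53.7 in KD, 16.4 and 16.1 in EV, and 12, 9.98 and 10.9 in OE. The exons of RAD54B overlap those of FSBP over 66% of RAD54B, and both are opposers.

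Both samples that stood apart bore on these genes. KD 2 was the lowest KD sample for all 13 S-phase opposers and OE 2 the lowest OE sample for 12 of them, so KD 2 lay nearer to its control and OE 2 farther from its own. This was not particular to them: KD 2 was lowest in 151 and OE 2 in 140 of all 237 opposers, and KD 2 was lowest in 46 of 60 genes of the whole S-phase list and 59 of 61 of the G2 and mitosis list. Without OE 2, 7 of the 13 stayed in the set and UHRF1, E2F7, RAD51AP1, BRCA1, BRCA2 and HELLS left it. Under TMM scaling 8 stayed, without MCM10, UHRF1, E2F7, RAD51AP1 and BRCA2. Without EV 2, UHRF1, RAD51AP1 and BRCA2 left it. Without KD 2 all 13 stayed, and the median of the whole list in KD was 1.21.

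Promoter windows were at hand for 11 of the 13 S-phase opposers and searched for an E2F site in 2 forms (TTTGGCGC and TTTCCCGC, either strand). The first form was in 1.13% and the second in 2.75% of all promoters. The first was in POLE2 and HELLS, the second in UHRF1, CLSPN and HELLS. They are shown because E2F factors are the known regulators of this group, with the letters of the site in capitals on the strand of the gene.
CLSPN, chr1:35769965-35769994, minus strand: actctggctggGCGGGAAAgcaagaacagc
POLE2, chr14:49688201-49688230, minus strand: ctgcggcggtgGCGCCAAAtcgcaaatatg
HELLS, first form, chr10:94545701-94545730, plus strand: aaccgcaagctGCGCCAAAtctcgcgcagc
HELLS, second form, chr10:94545769-94545798, plus strand: gatgacaggatTTTCCCGCgaaggagaagc
UHRF1, chr19:4909476-4909505, plus strand: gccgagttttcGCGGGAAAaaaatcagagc
The sites of CLSPN and POLE2 start at position -5, that of UHRF1 at -14 and those of HELLS at -76 and -8. Of all 164 opposers with a window, 5 held the first form and 7 the second. The C/EBP-ATF composite letters were in 2 of the 164 (PCOTH and ALPK2) and the cyclic AMP response element in 7, MCM10 among them.

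The opposers with the largest change in both arms and a mean of at least 5 CPM were mostly outside these lists. ZNF385B (chr2:179441982-179861612), a zinc finger protein, was at 12.7 and 14.2 CPM in NT, 33, 26 and 29.3 in KD, 16.7 and 16 in EV, and 4.94, 4.2 and 4.45 in OE. PEG10 (chr7:94656325-94669695), an imprinted gene derived from a retrotransposon, was at 8.3 and 9 CPM in NT, 21, 14.8 and 19.3 in KD, 9.06 and 10.5 in EV, and 1.71, 1.82 and 2.17 in OE, 4.94-fold below EV. PLEKHS1 was at 4 and 3.5 CPM in NT, 9.23, 9.63 and 9.96 in KD, 4.8 and 4.33 in EV, and 1.9, 1.23 and 1.65 in OE. In these 3 the KD samples were above and the OE samples below every control sample. TNS1, a focal adhesion protein, and ARHGAP28, a GTPase-activating protein, had the same order of line means, with log2 ratios of -1.71 and -1.03 in OE and 1.25 and 1.42 in KD.

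EFNB2 (chr13:106489745-106535662), the membrane ligand ephrin B2, had the largest difference in CPM of these, at 19.5 and 17.2 CPM in NT, 128.7, 129.1 and 130.5 in KD, 49.2 and 51.3 in EV, and 22.2, 22.6 and 21.8 in OE. It was 7.01-fold higher in KD than in NT, and OE lay at 2.26-fold below EV yet above NT. MYBPC1, a myosin-binding protein, was at 4.19 and 4.62 CPM in NT, 25.1, 23 and 26.7 in KD, 14.1 and 14.9 in EV, and 8.1, 7.68 and 7.2 in OE. DSEL was at 2.94 ± 0.167 CPM in NT and 13.1 ± 0.096 in EV (SD, n = 2), against 13.5 ± 0.128 in KD and 6.38 ± 0.758 in OE (SD, n = 3). In all 3 the EV samples were higher than both the NT and the OE samples.

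**Figure D4:**
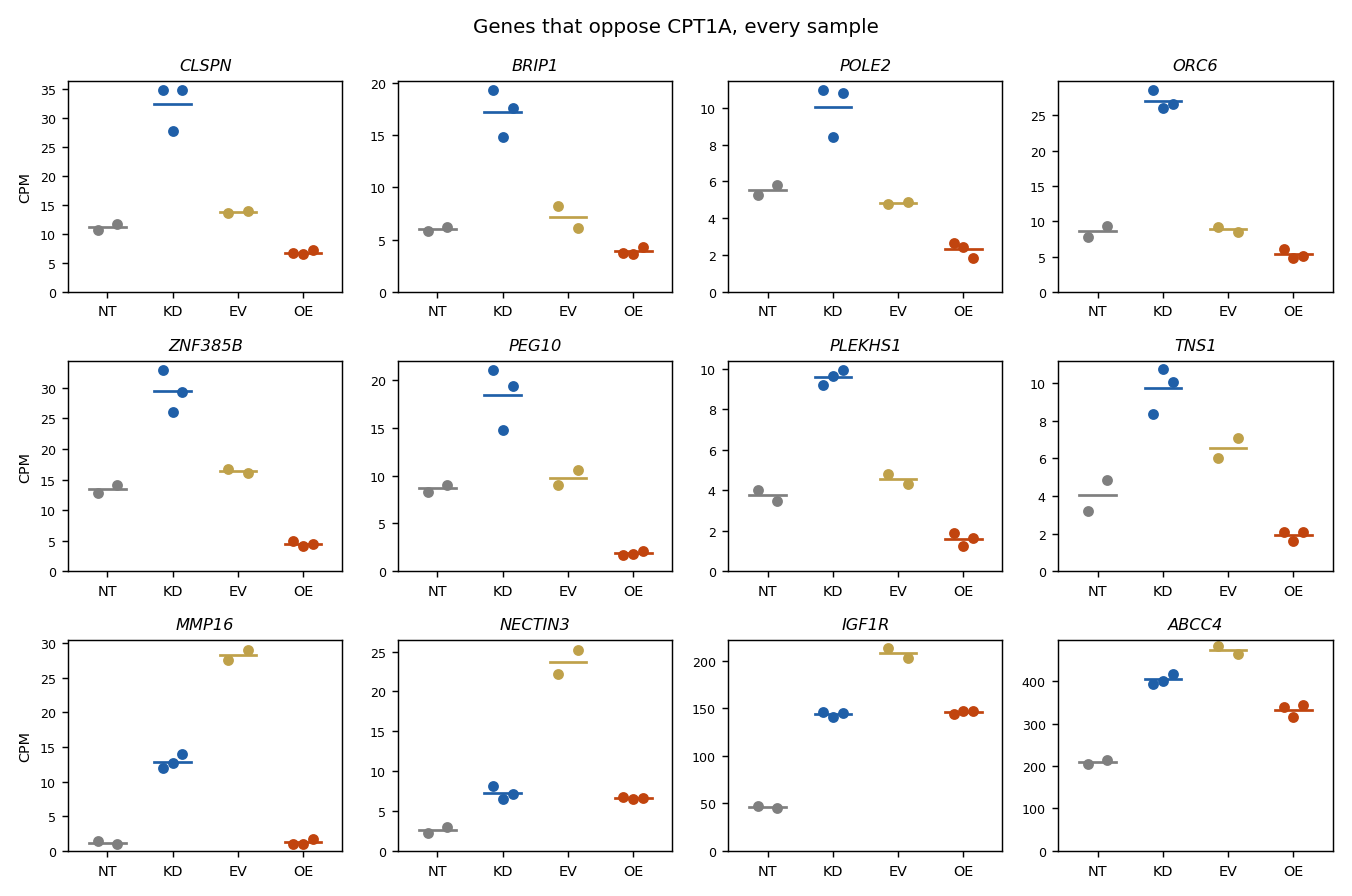
CPM in every sample (points) with the line mean (bar) in NT, KD, EV and OE for 12 genes that oppose CPT1A, each on its own linear axis from 0. In the upper 8 genes the KD samples are highest and the OE samples lowest. In the lower 4 (MMP16, NECTIN3, IGF1R and ABCC4) the EV samples are highest and the NT samples are at or near the lowest level.

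The control lines themselves stood on different levels in many of these genes. Over all genes at 1 CPM or more, EV was above NT in 52.3%, but in 83.5% of the opposers (198 of 237) and 23.7% of the followers (22 of 93). The median log2 ratio of EV over NT was 0.42 in opposers, -0.36 in followers and 0.02 in all these genes. EV against NT was called higher in 68 of 237 opposers (5.25% of genes tested) and lower in 9 of 93 followers (2.91%). By line means, both KD and OE lay outside the range of the 2 controls on opposite sides in 74 followers and 160 opposers. Only KD did in 10 and 31, only OE in 3 and 12, and neither in 6 and 34. CPT1A itself has EV above NT, and its full order of the 4 lines was matched by 22 followers and reversed by 39 opposers. The same samples chose the genes, so these are descriptions.

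**Figure D5:**
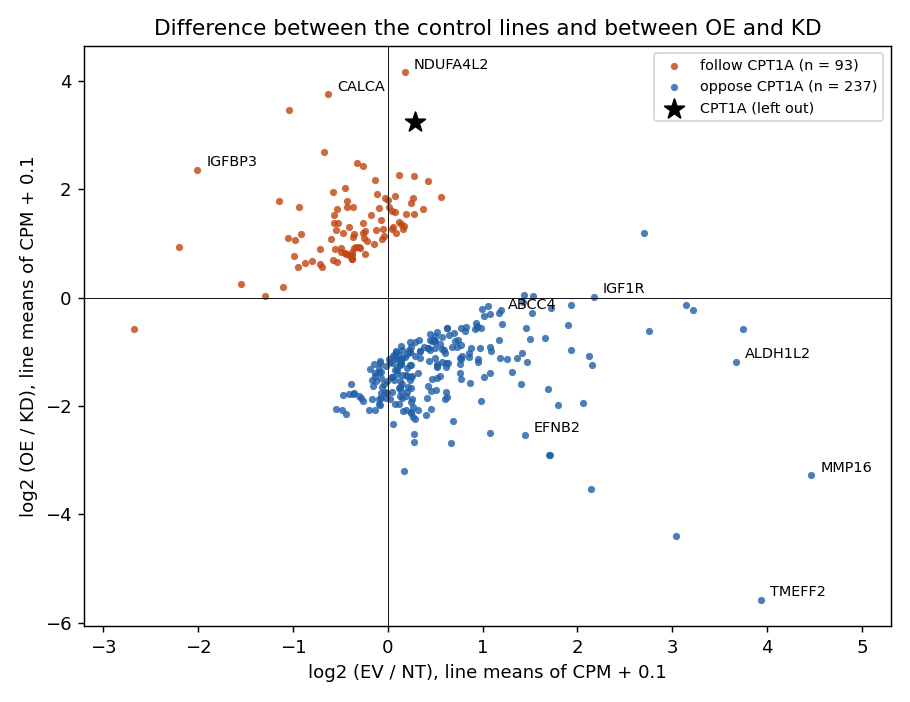
Log2 ratio of EV over NT (x axis) against log2 ratio of OE over KD (y axis) for the 93 followers (red), the 237 opposers (blue) and CPT1A (star). The opposers reach far to the right, where EV is above NT (198 of 237), and most followers lie to the left, where it is below (71 of 93).

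MMP16, a membrane-type matrix metalloproteinase, was the plainest case, at 1.45 and 0.924 CPM in NT, 12, 12.6 and 14.1 in KD, 27.6 and 29 in EV, and 0.989, 1.06 and 1.65 in OE. EV was 22.1-fold above NT and above KD as well. NECTIN3, a cell adhesion protein, was at 2.25 and 2.93 CPM in NT, 8.15, 6.51 and 7.16 in KD, 22.2 and 25.3 in EV, and 6.73, 6.45 and 6.69 in OE, so KD and OE lay together. IGF1R, the receptor of insulin-like growth factor 1, was at 46.9 and 45.5 CPM in NT, 146, 141 and 145 in KD, 213 and 203 in EV, and 144, 147 and 147 in OE. KD and OE overlapped there too, and with AKAP12, NBL1 and LAT2 it was 1 of 4 opposers in which OE was not below KD. BST2, an interferon-induced antiviral protein, and SOAT1, which esterifies cholesterol, also had EV highest of the 4 lines, at 8.71 ± 0.119 and 40.4 ± 1.72 CPM (SD, n = 2).

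The androgen-induced opposers also had EV above NT. Of 42 genes on that list, 6 were opposers: ABCC4, SMS, RAB3B, HERC3, MAF and INPP4B. All 6 had log2 ratios of EV over NT from 0.81 to 1.37, and none met the stricter order. ABCC4, an efflux transporter, was at 206 and 215 CPM in NT, 393, 401 and 417 in KD, 482 and 465 in EV, and 340, 316 and 344 in OE. SMS, spermine synthase, was at 145 and 148 CPM in NT, 273, 247 and 267 in KD, 293 and 264 in EV, and 178, 172 and 175 in OE. RAB3B, a vesicle GTPase, was at 128.9 and 139.3 CPM in NT, 233, 234 and 239 in KD, 235 and 235 in EV, and 155, 155 and 153 in OE, so its KD and EV samples lay together. Against the mean of the 2 control lines, none of the 6 met the rule, and 3 did under TMM scaling (SMS, RAB3B and MAF). With each arm centred on the median of genes of like G and C content, 1 of the 6 stayed (MAF). Over the 42 genes the median log2 ratio was 0.57 for EV over NT, -0.18 for OE over EV and 0.61 for KD over NT. At any size, 24 of the 42 were lower in OE and higher in KD, against 25.2% of all genes. In the edgeR fit 27 of 43 tested were called higher and none lower in EV against NT, beside 5.25% and 2.91% of all genes tested. The KD calls on this list were 30 higher and 4 lower, beside 16.4% and 12.8% of all genes tested. The OE calls were 11 higher and 9 lower, beside 11.6% and 10.3%. The prostate marker KLK3, also on this list, was at 2492 ± 163 CPM in NT and 3458 ± 89.4 in EV (SD, n = 2). It was at 4602 ± 162 in KD and 5503 ± 68.2 in OE (SD, n = 3). So KLK3 was higher in both arms, with log2 ratios of 0.67 for OE over EV and 0.88 for KD over NT. Its part in the values of the list was not tested.

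On the list of fatty acid oxidation and lipid breakdown, which leads through CPT1A, 3 of 46 genes opposed it and none followed, beside 1.70% of all genes at 1 CPM or more that oppose. At any size, 21 of the 46 were lower in OE and higher in KD, against 25.2% of all genes. CROT, the peroxisomal carnitine octanoyltransferase, was at 10.7 and 10.7 CPM in NT, 20.4, 16.3 and 22.2 in KD, 13.2 and 12.3 in EV, and 8.1, 6.71 and 9.81 in OE, with KD above and OE below all controls. ACADL and ACOX2, acyl-CoA dehydrogenase and oxidase enzymes of mitochondria and peroxisomes, had EV as the highest line, at 9.10 ± 0.503 and 21.6 ± 0.266 CPM (SD, n = 2). Over the 46 genes the medians were -0.12 in OE and 0.32 in KD. ELOVL2, which lengthens polyunsaturated fatty acids, was at 5.29 and 6.91 CPM in NT, 23.6, 16.7 and 22.1 in KD, 12.9 and 12 in EV, and 7.72, 6.67 and 8.12 in OE.

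ALDH1L2, the mitochondrial formyltetrahydrofolate dehydrogenase, is on the ATF4 list but was an opposer. It was at 1.1 and 1.17 CPM in NT, 1.52, 1.76 and 1.75 in KD, 14.9 and 16.3 in EV, and 0.647, 0.509 and 0.882 in OE. Only EV stood far from the rest, and KD exceeded NT by a log2 ratio of 0.52. GCSH of the glycine cleavage system was the other opposer of the one-carbon list, at 1.77 ± 0.348 CPM in NT and 3.50 ± 0.282 in EV (SD, n = 2). SLC16A10, a transporter of aromatic amino acids, had close controls instead, at 7.54 and 8.92 CPM in NT, 7.84 and 8.92 in EV, 15.6, 14.8 and 15.6 in KD, and 3.46, 4.42 and 4.41 in OE. GSTM3, a glutathione transferase, had the same order at 58.5 and 62.2 CPM in NT, 63.2 and 65.1 in EV, 86.8, 98.0 and 84.5 in KD, and 44.7, 46.2 and 44.4 in OE. None of 37 aminoacyl-tRNA synthetase genes at 1 CPM or more was a member of either set. Of all genes at that level 0.668% follow and 1.70% oppose, so nothing is read from this.

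Of the remaining listed opposers, PHLDA1, an early response gene, was at 1.33 ± 0.116 CPM in NT and 11.2 ± 0.96 in KD, and at 4.85 ± 0.96 in EV and 2.77 ± 0.355 in OE (SD). TRGC1, a T-cell receptor constant gene whose transcript prostate cells are known to make, was at 0.762 and 0.804 CPM in NT, 8.99, 6.32 and 9.05 in KD, 3.15 and 2.39 in EV, and 0.989, 1.1 and 0.882 in OE, while CD3E had no count. BMPR1B, a receptor of bone morphogenetic proteins, had EV highest at 86.6 ± 1.30 CPM and NT lowest at 37.8 ± 0.439 (SD, n = 2). At high level, UTRN, the dystrophin relative utrophin, was at 111 and 111 CPM in NT, 288.4, 249.3 and 293.9 in KD, 248.4 and 251.1 in EV, and 161, 156 and 165 in OE, and the kinase STK39 was at 175 and 176, then 393, 351 and 414, then 308 and 290, then 210, 206 and 218 in the same order. In both, OE lay between NT and EV.

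The largest log2 ratios of all, -5.27 in OE and 4.25 in KD, belonged to a low-level opposer named after its values were seen. TMEFF2, a transmembrane protein of prostate and brain, had 6 and 7 counts in NT, 140, 170 and 216 in KD, 140 and 125 in EV, and 1, 2 and 0 in OE. NT and OE were near 0 while KD and EV were at several CPM, so EV and NT were far apart as well, with a log2 ratio of EV over NT of 3.94. With so few counts in NT and OE these ratios depend on the 0.1 CPM added.

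Likeness to CPT1A was measured as Pearson's r of log2 (CPM + 0.1) over the 10 samples, which fall into 4 lines and share those lines with CPT1A. It is a description of genes already chosen by 2 of the contrasts. The followers had a median r of 0.908 and the opposers of -0.891. Among followers with a gene name, leaving out those known by a clone name, it was highest for SPSB3 (0.994), TM7SF2 (0.990), PPP1R15A (0.989), the non-coding LINC01144 (0.988) and the forkhead factor FOXN4 (0.985). SPSB3 was at 25.2 and 23.9 CPM in NT, 15.4, 17.5 and 16.2 in KD, 26.3 and 28.4 in EV, and 39.2, 40.4 and 39.4 in OE, and 66.9% of its exon bases are shared with EME2. Among opposers low r values were those of FSTL1 (-0.997), MCMBP (-0.994), ENPP1 (-0.992), PDSS1 (-0.991) and NASP (-0.989). FSTL1, a secreted glycoprotein, was at 20.5 and 20.6 CPM in NT, 30.3, 30.4 and 29.8 in KD, 19.1 and 19.8 in EV, and 13.8, 13.5 and 13.0 in OE. MCMBP, which binds the replicative helicase, was at 66.9 and 66.8 CPM in NT, 108, 100 and 108 in KD, 67.9 and 68.4 in EV, and 45.7, 45.3 and 47.3 in OE, and the histone chaperone NASP ran from 69.3 ± 3.70 in OE to 167 ± 11.8 in KD (SD, n = 3). ENPP1 is a membrane nucleotide pyrophosphatase, and PDSS1, of ubiquinone synthesis, shares 10.8% of its exon bases with ABI1.

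OE and KD can be set against each other without the control samples, although the same samples chose the genes. OE was above KD in 92 of 93 followers, MIR222HG being the exception, and was called higher in 78 (15.5% of genes tested). OE was below KD in 233 of 237 opposers and was called lower in 193 (16.4%). Over all genes tested those calls were 2670 higher and 2820 lower, and 1663 and 3705 with library size as the only scaling (31.0% higher). The median log2 ratios of OE over KD were 1.27 and -1.25, against -0.14 over all genes at 1 CPM or more.

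Base composition, which the rule did not use, differed among the opposers. Their transcripts had a median of 43.4% G and C (213 of 237 with a value), against 48.1% over the 12272 genes with a value, and a median longest transcript of 4587 against 3883 bases. When the 12272 genes were divided by G and C content into 4 groups of 3068, the opposers numbered 82, 70, 30 and 31 from the lowest to the highest content. The median log2 ratio of OE over EV climbed along the groups for all genes (-0.41, -0.18, 0.03 and 0.17), as did that of KD over NT (-0.14, 0.02, 0.17 and 0.21). With each arm centred on the median of genes of like G and C content, 100 of these 213 opposers stayed in the set, 5 of the 13 S-phase members among them, and the part of base composition in the other values was not tested. The same check over all followers is void, since only 64 of 93 (68.8%) could be matched to the annotation.

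Opposers made up 6.02% of the genes at 1 CPM or more on chromosome 13 and between 0 and 3.49% on every other chromosome. None of the 64 placed followers lay on chromosomes 13, 18 or 21, and where the others lie is not known here. All placed genes of chromosome 13 had a median log2 ratio of -0.33 for OE over EV and -0.08 for KD over NT. Both were the lowest of the 23 chromosomes examined, so its genes as a whole did not share the KD direction of the opposers. Of the opposers there, TNFRSF19, a TNF receptor relative picked out after its values were seen, was at 128 and 122 CPM in NT, 228, 213 and 236 in KD, 225 and 201 in EV, and 78, 79.3 and 80.5 in OE. PCOTH was at 3.96 and 4.54 CPM in NT, 9.43, 7.91 and 8.53 in KD, 8.39 and 7.14 in EV, and 4.22, 3.95 and 3.82 in OE, and shares 12.4% of its exon bases with MIPEP.

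At the edge of the rule, the followers PPP1R15A, FUT3 (0.50 and -1.08) and SLC25A5-AS1 (0.54 and -0.50) were the last inside by their log2 ratios in OE and KD. GATM (0.80 and -0.49), FEZF1-AS1 (0.49 and -1.002) and STOX2 (0.49 and -0.52) were the first outside. Among opposers RAB39A (-0.50 and 1.01), SMC2 (-0.50 and 0.71) and SFXN2 (-0.50 and 0.65) were just inside, and EXTL2 (-0.81 and 0.50) and TERT (-0.50 and 1.24) just outside. SMC2, a condensin subunit, was at 36 and 40.9 CPM in NT, 72.8, 46.2 and 69.5 in KD, 26.6 and 32 in EV, and 21.2, 18.4 and 22.4 in OE. Of the 330 members, 42 carry only a clone name and are counted here without being named.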

How the data were processed

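Bulk poly(A) RNA of 10 samples was sequenced by the authors, trimmed with BBDuk (reads under 50 bp discarded), aligned with STAR 2.6.0a to hg38.p12 (Ensembl release 96, GRCh38) and deposited as raw gene counts. How strand and multiply mapped reads were handled is not given in the sources used here, so overlapping and antisense genes cannot be separated. The members and gene lists were chosen with earlier results of these data known, and no test is claimed for them. CPM were counts over column sums. All genes were fitted with edgeR 4.0.16 (filterByExpr, TMM, 1 mean per line, quasi-likelihood test, Benjamini-Hochberg adjustment, calls at adjusted p under 0.0001), after a check on simulated counts. All 330 members passed its filter. Alternatives used DESeq2 1.42.0, limma-voom 3.58.1, other filters and scalings, other pseudocounts and single-sample omissions. The p-values measure only the spread between samples of the same line, estimated over all 4 lines together.

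Named were, per direction, the 15 members with the largest smaller arm at 5 CPM or more, members on any of 22 lists, the 5 most abundant, 3 members and 3 non-members nearest the limit, the 5 most like CPT1A, and up to 8 with a printed promoter window. A few genes that this rule selects are not reported here. Others are said to be chosen after their values were seen. Positions came from GENCODE version 44 on GRCh38, and promoters from RefSeq. Exon overlap was computed among genes at 1 CPM or more. Same-numbered samples did not deviate together, so numbers were not taken as pairs.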

Additional observations from a re-analysis of the deposited data

How the results depend on the processing

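The set depended on its scale. TMM scaling in the rule gave 143 followers and 160 opposers, DESeq2 size factors 145 and 156, a pseudocount of 1 CPM 42 and 157, a limit of 5 CPM 34 and 147, and no limit 315 and 583. Settings chosen after seeing the data gave 60 followers and 156 opposers with each arm set against the mean of EV and NT, and 120 opposers after centring on 10 groups of G and C content. Leaving out KD 2 and OE 2 together gave 91 and 222. With single samples left out the followers numbered 89 to 108 and the opposers 210 to 256. The cause was not tested. Genes called numbered 3778 in OE against EV (1740 to 4969 with single samples left out), 5022 in KD against NT (3110 to 5339), 1406 in EV against NT (509 to 2438, and 2306 with no filter) and 5490 in OE against KD (4456 to 6241). The lowest OE counts came without EV 2 (1740) and EV 1 (2065), and the lowest KD counts without NT 1 (3110) and NT 2 (3278). For EV against NT, the counts were 2438 without KD 2, 509 without EV 1, 620 without EV 2, 554 without NT 1 and 631 without NT 2. Members called in both arms numbered 37 followers (26 to 42) and 96 opposers (57 to 127, with 62 without EV 1 and 57 without EV 2). With the replicate number as a block, 37 followers and 103 opposers were called in both arms and 4258 genes in OE against EV, 5236 in KD against NT, 1780 in EV against NT and 5870 in OE against KD, but the residuals of same-numbered samples correlated at -0.0028 on average over 13 pairs, so they share only a number. The fitted change of 1 follower turned direction in an arm without NT 1, and that of 1 opposer without EV 1. No other member's did under these fits.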
